A study of Mus musculus with 2 samples.

Results

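The imprinted microRNA genes around Meg3 and Rian were taken by name from the microRNA-seq count tables: Mir770, Mir673, Mir493, Mir337, Mir540, Mir665, Mir341, Mir1188 and Mir370, which are 9 of the 2202 microRNA genes measured. All 9 were found by their GENCODE M21 symbols, and the reads on each gene's own strand were used. The source tissue, named in the labels "layer of hippocampus", was from adult male mice aged 8 to 10 months, supplied by The Jackson Laboratory. The strain label is 5xFAD/CAST: the 5xFAD line models amyloid disease through transgenes driven by the Thy1 promoter, which is active in neurons, and CAST is a wild-derived strain. The labels number 2 libraries as biological replicates of 1 group and give them 1 donor record, so they do not settle whether 2 animals were sampled. No control was analysed here, and every comparison below sets 1 library against the other or 1 gene against another.

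These genes lie in the Dlk1-Dio3 imprinted region of chromosome 12. The protein-coding genes of the region, Dlk1, Rtl1 and Dio3, are known to be expressed from the paternal chromosome, and its noncoding RNAs from the maternal chromosome. Meg3 is the first of those long noncoding RNAs, Rian carries many small nucleolar RNAs, and Mirg carries a further group of microRNAs. A microRNA hairpin is cut by Drosha and Dicer into short strands from its 5′ and 3′ arms. A strand loaded into Argonaute recognises target messenger RNAs mainly through its seed. The counts here are per hairpin, so they give neither the arm nor the parental allele of a read.

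RefSeq (GRCm38.p6) held a 5′ and a 3′ mature sequence for each of the 9 genes, and their hairpins were the same in place and letters as in GENCODE M21. The following mature sequences are shown, 5′ to 3′, because these genes had the highest levels or the widest ratios between libraries. All lie on the plus strand. Not every gene has both arms printed, and the choice of arm says nothing of its level, since the counts do not give the arm. Capitals mark the seed, bases 2 to 8.
miR-770-5p: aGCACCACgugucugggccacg
miR-770-3p: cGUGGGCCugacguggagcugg
miR-673-5p: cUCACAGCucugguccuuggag
miR-665-3p: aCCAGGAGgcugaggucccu
miR-493-3p: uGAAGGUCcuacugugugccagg
miR-341-5p: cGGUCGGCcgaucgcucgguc
miR-341-3p: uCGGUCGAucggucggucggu
miR-370-3p: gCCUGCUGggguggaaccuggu

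The 9 genes do not form a seed family. Their 18 mature sequences held 18 different seeds. Of these, 15 occurred in no other gene among the 1738 mature mouse sequences searched. The seed of miR-673-5p was shared with miR-6985-3p, that of miR-540-3p with miR-6915-5p, and that of miR-370-5p with miR-1193-3p, whose gene lies in the same imprinted region. No hairpin of the 9 held a stretch of 20 bases found in a microRNA gene at another place. Shorter or inexact matches, and copies outside the annotated microRNA genes, were not searched.

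The Mir341 hairpin stood out by a repeat, chosen after its letters were seen. It is printed here from RefSeq as transcribed, with each copy of the letters CGGU in capitals.
Mir341 hairpin: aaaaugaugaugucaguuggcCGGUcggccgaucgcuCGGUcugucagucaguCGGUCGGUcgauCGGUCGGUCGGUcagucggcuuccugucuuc
It held 7 copies of CGGU on the transcribed strand, the only strand searched. No other hairpin of the 2202 had more than 5, no other of the 9 genes had more than 1, and 9.22% of all hairpins had at least 1 copy.

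Replicate 1 held 3421977 reads assigned to microRNA genes and replicate 2 held 2820468, and levels are given as CPM, reads scaled by these totals. The limit that a count of 0 sets (3 reads) was 0.877 CPM in replicate 1 and 1.06 CPM in replicate 2. Another 64.8% and 67.0% of the reads carried no gene name. All 9 genes passed the detection minimum of 10 reads in both libraries, which 389 of the 2202 genes passed. The tissue label was checked against marker microRNAs. Of 11 neuron-enriched genes 8 were detected, with 3.30% and 3.40% of assigned reads, while the 3 copies of the neuronal Mir124a, which share sequence, were at or near 0, with 5 reads in each library at Mir124a-1 and 0 at the others. Reads that fit several places, 41.6% and 38.2% of all reads, stand in a row of the tables that names no gene. Erythroid genes took 0.00476% and 0.00599%, and muscle and liver genes 0.00675% and 0.00620%. The oligodendrocyte pair took 0.503% and 0.666%, the 4 microglia and leukocyte genes 0.385% and 0.325%, and endothelial Mir126a 0.787% and 0.746%. The oligodendrocyte pair went in opposite directions: Mir338 had 2050 CPM in replicate 1 and 4000 in replicate 2, and Mir219a-2 had 2977 and 2662. The 4 choroid plexus and ependyma genes took 0.338% in replicate 1 and 0.159% in replicate 2.

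Together the 9 genes took 1.54% of assigned reads in replicate 1 (52776 reads, exact Clopper-Pearson 95% interval 1.53 to 1.56) and 1.62% in replicate 2 (45564 reads, 1.60 to 1.63). Their mean share was 1.58% ± 0.052 (SD, n = 2). One gene made up most of this: Mir770 held 64.3% of their reads in replicate 1 and 69.9% in replicate 2. The other 8 genes took 0.551% and 0.487% of assigned reads. Of the reads of all 67 microRNA genes between Dlk1 and Dio3, the 9 held 15.1% and 16.9%. The intervals treat each read as independent and cover counting error only. The reads carry no molecular identifiers, so copies made in amplification were not told apart from separate fragments.

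Mir770 is the gene within Meg3 (ENSMUSG00000076451.1; mm10 chromosome 12, 109563692 to 109563785, plus strand). It lies in an exon of 1 of the 11 annotated Meg3 transcripts and in an intron of 3. It had 33913 reads in replicate 1 and 31827 in replicate 2, which are 9910 and 11284 CPM, with a mean of 10597 ± 972 CPM (SD, n = 2). It ranked 20 among all measured genes by mean CPM of assigned reads, which leave out the reads that fit several places. The 2 libraries were close at this gene, replicate 2 being slightly the higher. Within the region only Mir127 and Mir433, which lie opposite Rtl1, were above it. Mir127 had 3.07 times the reads of Mir770 in replicate 1 (95% interval 3.04 to 3.11) and 2.59 times in replicate 2 (2.56 to 2.63). The other annotated microRNA gene in Meg3, Mir1906-1, had 0 reads in both libraries, but shares sequence with a copy elsewhere.

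**Figure D1:**
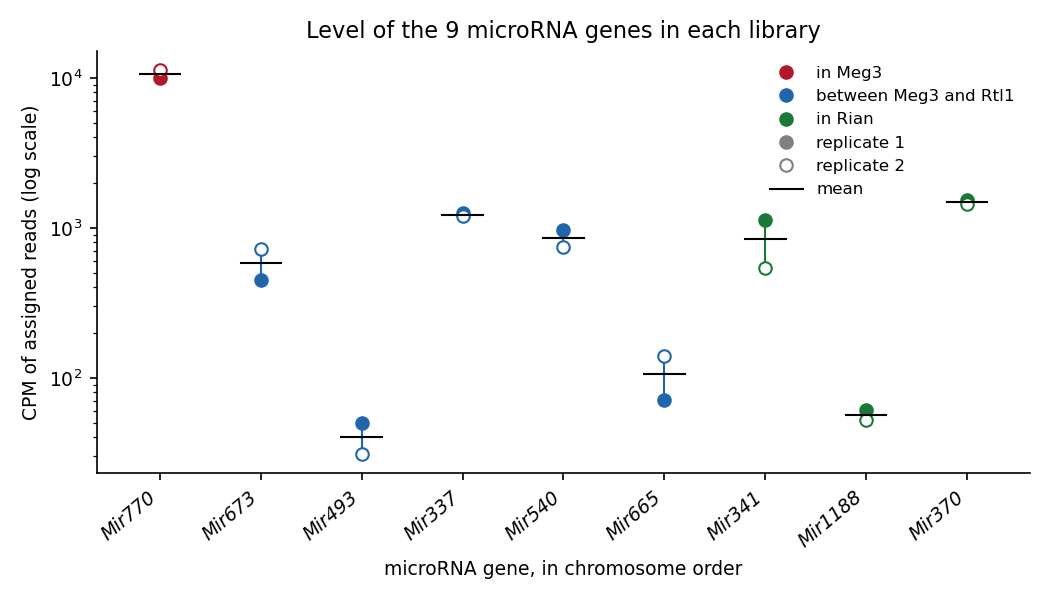
CPM (log axis) for each of the 9 genes in chromosome order. Filled points are replicate 1, open points replicate 2 and black lines their mean. Mir770 sits near 10597 CPM, above the 8 other genes in both libraries, and Mir341 has its 2 points farthest apart on this log scale.

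Of the 9 genes, Mir673, Mir493, Mir337, Mir540 and Mir665 lie between the end of Meg3 and Rtl1, outside the annotated host transcripts. Together they took 18.0% of the reads of the 9 genes in replicate 1 and 17.5% in replicate 2. Mir3070a (33 and 28 reads) and Mir3070b (72 and 53 reads) also lie there but are not among the 9. Each shares sequence with a microRNA gene at another place. Mir673 (ENSMUSG00000076316.1; 109571990 to 109572080) starts 264 bases after the annotated end of Meg3. It had 1541 and 2024 reads, or 450 and 718 CPM, with a mean of 584 ± 189. Replicate 2 was the higher. Mir493 (ENSMUSG00000077025.2; 109580233 to 109580315), known from studies of liver metastasis as a microRNA that restrains it, was the lowest of the 9. It had 170 and 88 reads, or 49.7 and 31.2 CPM, with a mean of 40.4 ± 13.1. Here replicate 1 was the higher.

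Mir337, Mir540 and Mir665 are neighbours separated by 194 and 167 bases. Mir337 (ENSMUSG00000065526.4; 109585789 to 109585885) had 4265 and 3366 reads, or 1246 and 1193 CPM, with a mean of 1220 ± 37.4. Mir540 (ENSMUSG00000072900.2; 109586080 to 109586146) had 3301 and 2107 reads, or 965 and 747 CPM, with a mean of 856 ± 154. Mir665 (ENSMUSG00000076313.1; 109586314 to 109586407) had 242 and 395 reads, or 70.7 and 140 CPM, with a mean of 105 ± 49.0. Mir337 and Mir540 were thus both higher in replicate 1, and Mir665 was higher in replicate 2. Closeness on the chromosome did not go with equal levels: Mir337 had 17.6 times the reads of Mir665 in replicate 1 (95% interval 15.5 to 20.1) and 8.52 times in replicate 2 (7.68 to 9.48).

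Mir337 needs the strand of the reads to be seen at all. Its hairpin overlaps that of Mir3544, on the minus strand, by 61 bases, and their mature forms overlap on opposite strands by 17 bases at 1 arm and 21 at the other. Both pairs of mature sequences are shown with the seed in capitals.
miR-337-5p: cGGCGUCAugcaggaguugauu
miR-3544-3p: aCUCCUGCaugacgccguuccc
miR-337-3p: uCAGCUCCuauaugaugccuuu
miR-3544-5p: aGAAAGGCaucauauaggagcug
In the column that disregards strand, Mir337 had 0 reads in both libraries. On its own strand it had 4265 and 3366, against 3 and 2 reads for Mir3544. The other 8 genes had the same count in both columns and no read on the opposite strand.

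Rian holds Mir341, Mir1188 and Mir370, each in an intron of 2 of its 20 annotated transcripts. Mir341 (ENSMUSG00000070101.1; 109611500 to 109611595) had 3883 and 1518 reads, or 1135 and 538 CPM, with a mean of 836 ± 422. As a ratio, this was the widest difference between the libraries among the 9 genes, replicate 1 being the higher. Mir1188 (ENSMUSG00000080406.1; 109611822 to 109611941) follows after 226 bases. It had 208 and 147 reads, or 60.8 and 52.1 CPM, with a mean of 56.5 ± 6.13. Mir370 (ENSMUSG00000065433.1; 109618258 to 109618336), studied elsewhere in the control of lipid metabolism in liver, had 5253 and 4092 reads, or 1535 and 1451 CPM, with a mean of 1493 ± 59.6. It was the second most abundant of the 9. Gm23912, the fourth microRNA gene annotated in Rian, had 0 reads in both libraries.

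Within Rian the reads of Mir341 relative to Mir1188 and to Mir370 differed between the libraries beyond counting error. A scaling factor shared by all genes of a library leaves such ratios unchanged, while a correction for GC content does not. Mir341 had 18.7 times the reads of Mir1188 in replicate 1 (95% interval 16.2 to 21.6) and 10.3 times in replicate 2 (8.71 to 12.3). Mir370 had 1.35 times the reads of Mir341 in replicate 1 (1.30 to 1.41) and 2.70 times in replicate 2 (2.54 to 2.86). The ratio of Mir370 to Mir1188 stayed closer, at 25.3 (22.0 to 29.1) and 27.8 (23.6 to 33.0), and these intervals overlap. The 3 Rian genes together took 17.7% of the reads of the 9 genes in replicate 1 and 12.6% in replicate 2.

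**Figure D2:**
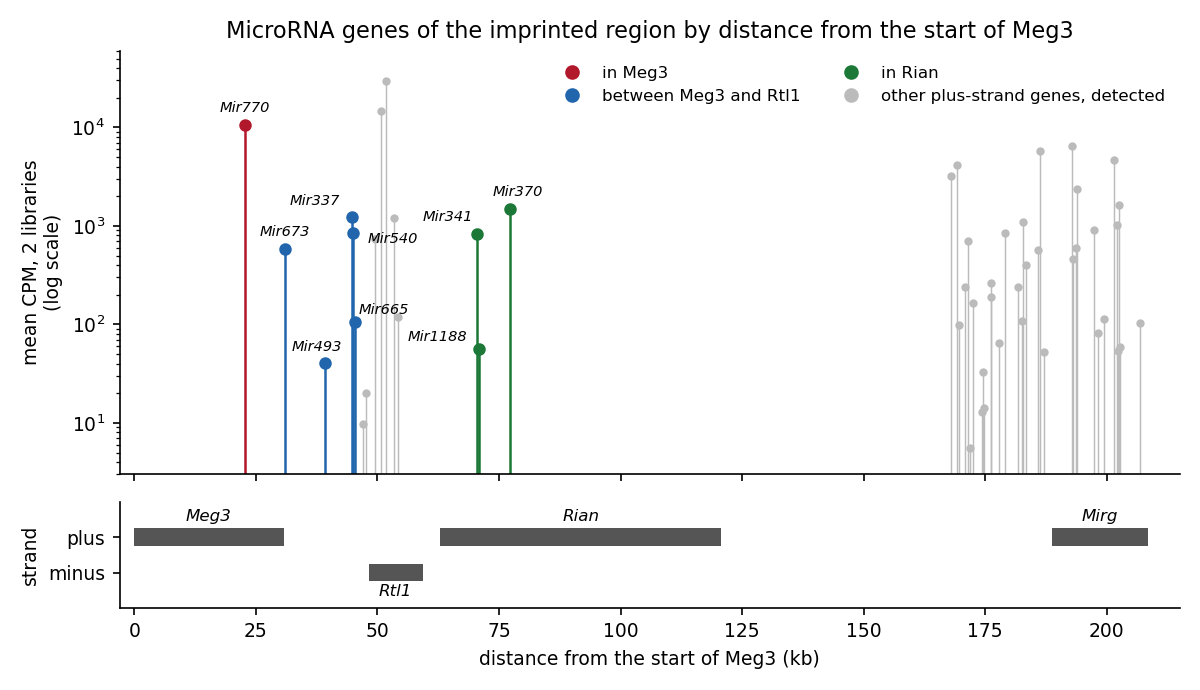
Mean CPM of the 2 libraries (log axis) against distance from the start of Meg3 in kb, with the annotated extent and strand of Meg3, Rtl1, Rian and Mirg below. Coloured points are the 9 genes and grey points the other detected plus-strand microRNA genes. Mir337, Mir540 and Mir665 share nearly 1 position at unequal heights, as do Mir341 and Mir1188.

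The order of mean levels was Mir770, Mir370, Mir337, Mir540, Mir341, Mir673, Mir665, Mir1188 and Mir493. Each read stands for 1 short fragment of a hairpin, so levels were compared without correction for length. Mir770 was 7.10-fold above Mir370 in the means, and Mir673 was 5.54-fold above Mir665. A pair of steps in this order did not exceed the spread between the libraries: the ranges of Mir540 and Mir341 overlapped, as did those of Mir341 and Mir673, and both pairs changed order between the libraries. The other 6 neighbouring pairs kept their order in both libraries without overlap. How evenly different sequences are ligated and amplified in a small RNA library was not measured, so its part in these levels was not tested.

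The libraries were then compared gene by gene, with a two-sided exact binomial test against library sizes scaled by TMM and Benjamini-Hochberg adjustment over the 389 detected genes. This test asks only whether the 2 libraries differ beyond counting error. Of the 9 genes 8 differed, against 67.6% of all detected genes. With a minimum of 100 reads in both libraries, 7 of the 8 members tested were called, against 86.3% of 241 genes. Higher in replicate 2 were 3 of the 9, where 33.9% of all detected genes were called, and lower were 5 of the 9, where 33.7% were called. With a correction for the GC content of the hairpins, 9 of the 9 were called in either direction, against 64.3% of all detected genes. The median log2 ratio of replicate 2 over replicate 1 was -0.18 over the 9 genes and 0.053 over all 389. The median size of the ratio, regardless of sign, was 0.47 over the 9 and 0.52 over all 389.

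Mir341 differed the most as a ratio, at 2.26-fold lower in replicate 2 (log2 ratio -1.18, 95% interval -1.26 to -1.09), and 58 of the 389 detected genes lay further apart. Mir493 had a log2 ratio of -0.77 (-1.16 to -0.39) and Mir540 of -0.47 (-0.55 to -0.39). Mir665 was 1.85-fold higher in replicate 2 (log2 ratio 0.89, 0.65 to 1.12), and Mir673 was 1.49-fold higher (0.57, 0.48 to 0.67). These 5 genes thus moved in both directions. Mir370 (-0.18, -0.24 to -0.12), Mir337 (-0.16, -0.23 to -0.096) and Mir770 (0.088, 0.066 to 0.11) differed by at most 1.13-fold. With library totals in place of TMM, Mir337 did not pass (-0.063, adjusted p = 0.085 by the exact binomial test). At these 3 deeply read genes the counting interval excluded 0 at small differences. Mir1188 did not pass the test (log2 ratio -0.32, -0.64 to -0.0092, adjusted p = 0.062 by the exact binomial test), but passed with DESeq2 size factors (-0.37, adjusted p = 0.025 by the same exact test).

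**Figure D3:**
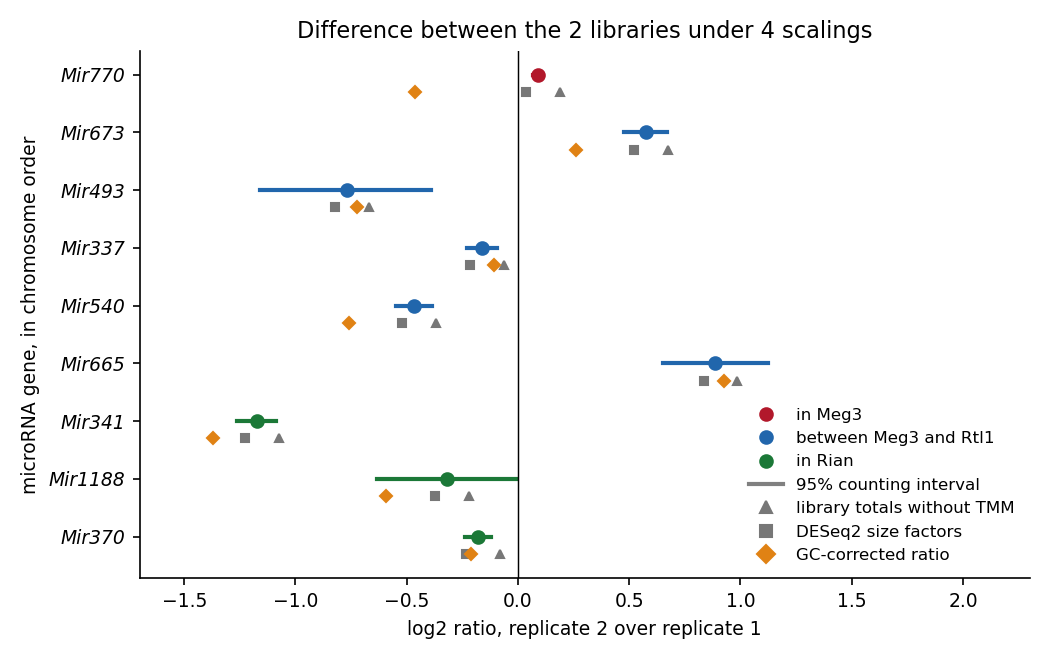
Log2 ratio of replicate 2 over replicate 1 for the 9 genes. Round points with bars are TMM-scaled ratios with 95% counting intervals, and smaller markers under them are the ratios with library totals, DESeq2 size factors and a correction for hairpin GC content. Mir341 lies at -1.18 and Mir665 at 0.89, and Mir770 changes sign with the GC correction.

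With the spread of the 2 libraries as the error, none of the 9 genes differed. The edgeR exact test used a common biological coefficient of variation of 0.41 and called 2 of the 389 genes (0.514%). It called 0 of the 9, with 0 also at an unadjusted p under 0.05, where 23 of the 389 genes lay. The unadjusted p of the 9 ran from 0.18 for Mir341 to 0.92 for Mir770, and the adjusted p was 1 for each (edgeR exact test). That spread is estimated from the same libraries that are compared, so the test does not show that the genes were equal.

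**Figure D4:**
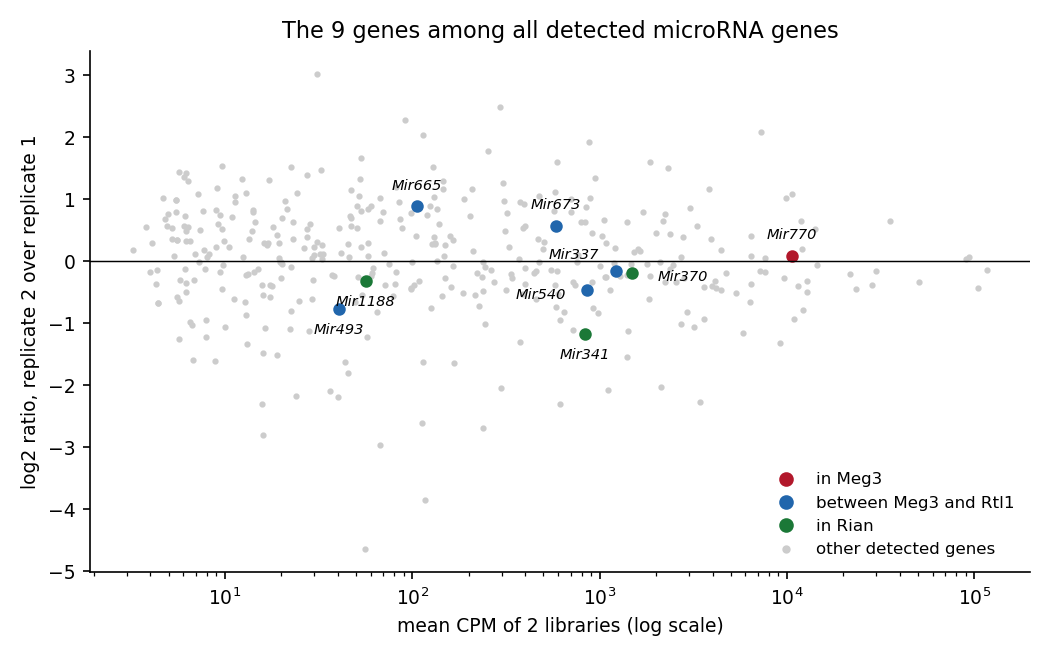
Log2 ratio of replicate 2 over replicate 1 against mean CPM (log axis) for the 389 detected genes, with the 9 genes coloured. The 9 lie within the cloud of grey points, from -1.18 for Mir341 to 0.89 for Mir665.

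The hairpins were richer in G and C than most of their region. Their GC content ran from 52.6% for Mir337 to 70.2% for Mir770, with a median of 59.4%. The median was 45.3% over the other 42 detected genes of the region and 52.1% over all 389. Among those 42, the genes opposite Rtl1 came near these hairpins, with a median of 56.5% (40.3% to 60.4%). The median was lower for the genes between Rian and Mirg (42.6%) and in Mirg (43.3%). Only 11 of the 389 detected genes had a higher GC content than Mir770. With a loess correction for GC content, the log2 ratio of Mir770 turned from 0.088 to -0.46, while the other 8 genes kept their sign and Mir1188 passed the test (-0.60, adjusted p = 2.6e-04 by the exact binomial test). The choroid plexus and ependyma markers, at 0.338% and 0.159%, were lower in replicate 2 as Mir341 was, and their part in its difference was not tested. In bulk tissue, fewer cells of a type and less RNA per cell cannot be told apart.

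All 9 genes, which lie on the plus strand, were detected, against 389 of all 2202 genes and 42 of the other 58 microRNA genes between Dlk1 and Dio3. The 58 include 8 minus-strand genes, of which 1 was detected. Of those 42 genes 36 differed between the libraries by the binomial test, 17 higher and 19 lower in replicate 2, beside 67.6% of all detected genes called, 33.9% higher and 33.7% lower. The plus-strand genes opposite Rtl1 took 45.7% and 48.1% of the region's reads with 5 of 6 detected, led by Mir127 (29871 ± 841 CPM). The 26 genes between Rian and Mirg took 21.3% and 15.4% with 21 detected, led by Mir487b (5790 ± 2865 CPM), and the 14 in Mirg took 17.9% and 19.6% with 13 detected, led by Mir382 (6449 ± 859 CPM). The median size of the log2 ratio was 0.47 over the 9 genes, 0.21 over those opposite Rtl1, 0.84 between Rian and Mirg, and 0.41 in Mirg. Of the region's own reads Mir370 held 1.51% ± 0.010 (SD, n = 2) and Mir337 1.23% ± 0.020, which were close in both libraries. Mir341 held 1.11% and 0.562%, and Mir770 9.68% and 11.8%.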

How the data were processed

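For 2 libraries the authors deposited unnormalized counts of reads at each microRNA gene, on mm10 with GENCODE M21, per the text notes deposited with them. Not given in the sources used here are the aligner, the counter, trimming and the handling of CAST sequence. The order of the strand columns was read from the values. The first 4 rows of each table name no gene (64.8% and 67.0% of reads) and were left out. All 2202 gene IDs were found in GENCODE M21.

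CPM, shares with exact Clopper-Pearson intervals (SciPy 1.17.1), and two-sided exact binomial tests against TMM-scaled library sizes (edgeR 4.0.16, R 4.3.3) were computed, the tests over genes with 10 or more reads in each library (adjusted p threshold 0.05). The design has no contrast for a quasi-likelihood test. The binomial test was tried on simulated counts that held counting error only. That trial cannot show how the test behaves with the wider spread of these 2 libraries. Alternatives were DESeq2 1.42.0 size factors, library totals, other minimum counts, the column without regard to strand, a GC correction and the edgeR exact test. P-values measure only these 2 libraries, whose spread may be technical. The text names all 9 genes. The region was taken as all microRNA genes between Dlk1 and Dio3, and the top gene of its classes is named. Genes, lists and tests were chosen with earlier results of these data known.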

Additional observations from a re-analysis of the deposited data

How the results depend on the processing

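The share of assigned reads held by the 9 genes was 1.58%, and 0.538% with all reads of the tables as the denominator, which by construction adds the reads with no gene name. By the edgeR exact test 0 of the 9 genes and 2 of the 389 detected genes differed between the libraries, against 8 and 263 by the exact binomial test. The edgeR test takes its error from the spread of the 2 libraries compared, and the binomial test from counting alone. Among 61 recomputed differences of single genes, 48 kept direction and side of the threshold. One reversed: Mir770 was at -0.46 with the GC correction, and the cause was not tested. Mir337 missed the threshold with library totals (-0.063, adjusted p = 0.085 by the exact binomial test). Mir1188 passed it with DESeq2 size factors (adjusted p = 0.025), with the column that disregards strand (0.038) and with the GC correction, all by the exact binomial test. The remaining 8 were the genes called by the binomial test, which missed the threshold by the edgeR exact test. Mir337 has no reads in the column that disregards strand, and Mir493 falls under a minimum of 100 reads, so neither gave a ratio there. Without a filter on low counts 37.3% of 756 genes were called, and with a minimum of 100 reads 86.3% of 241. With 88 to 395 reads in a library, Mir493, Mir665 and Mir1188 have the widest counting intervals. No paired analysis was possible because the design has 1 group.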
